A study of Nicotiana benthamiana with 9 samples.

Results

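The 89 assembly sequences described here were lower in leaves of Nicotiana benthamiana both after 1 h at 37 °C and after wounding than in mock plants. Nicotiana benthamiana is a wild relative of tobacco that is used as a laboratory host for transient gene expression. The members were selected on the 9 values per row that the authors head CPM, counts per 1000000 with a scaling factor per library. A member had to average at least 5 CPM in the mock libraries. Its ratios of heat to mock and of wound to mock, with 0.5 CPM added to each group mean, both had to be at most 0.67. Every heat library and every wounded library also had to lie below every mock library. These conditions were met by 89 of the 56094 rows of the deposited table (0.159%), or by 1.24% of the 7158 rows that reached 5 CPM in mock. Membership was therefore decided by the comparisons with mock, whose values are given as a description without a test.

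RNA came from leaves of plants grown in soil for 5 weeks, with 3 libraries in each of 3 groups stated to be biological replicates. Heat plants spent 1 h at 37 °C. Wounded plants had their leaves cut with scissors and then stayed at 23 °C for 1 h, and mock plants stayed uncut at 23 °C for 1 h. No transgene or mutant is named in the labels, and the labels do not say whether the wounded leaf or the whole plant was taken or how many plants made a library. Library totals ran from 13846165 to 17480792 counts. The deposited CPM equals plain counts per 1000000 times a factor of 1.01, 1.07 and 1.05 in heat libraries, 1.01, 0.994 and 1.00 in wounded libraries and 1.01, 0.910 and 0.961 in mock libraries.

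In plants, a rise in leaf temperature sets off heat shock transcription factors, which switch on chaperone genes within minutes. A wound raises the hormone jasmonate, which turns on defence genes and slows growth. In both responses the messenger RNAs of many genes used for growth and metabolism become scarcer while stress transcripts accumulate. CPM is a share of a library, so a fall means a smaller share and not by itself fewer molecules, and in whole leaves fewer cells of a type and less RNA per cell cannot be told apart.

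Each row of the table is a whole scaffold or contig of an assembly whose sequence names begin with Niben101, and each starts at position 1. The files do not pair the rows with genes: 0 rows carry an identifier. No gene, pathway or cell type could be assigned to a member, and leaf cell type markers could not be checked. A long scaffold can hold many genes, and its value is their sum. The species is an allotetraploid with many near-identical gene copies, and neither the labels nor the file headers say how reads with several matching places, or the strand of a read, were treated. Members that share such copies are therefore uncertain.

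Each member had to lie below mock in every treated library, so the summed CPM of the members was bound to be lower there. The values describe only the size of that difference. Together they held 0.373% ± 0.0341 of the counts in heat libraries, 0.461% ± 0.0384 in wounded libraries and 0.924% ± 0.135 in mock libraries (SD, n = 3 each). Their summed CPM was 4120.0, 3932 and 3603 in heat libraries, 4285, 4991 and 4566 in wounded libraries and 8185, 9780.4 and 8494 in mock libraries. The 8 members with the highest mock mean carried 50.1% of the members' CPM in heat libraries, 48.8% in wounded libraries and 52.7% in mock libraries. They also made up 54.7% of the summed difference between heat and mock and 56.9% of that between wounding and mock.

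**Figure D1:**
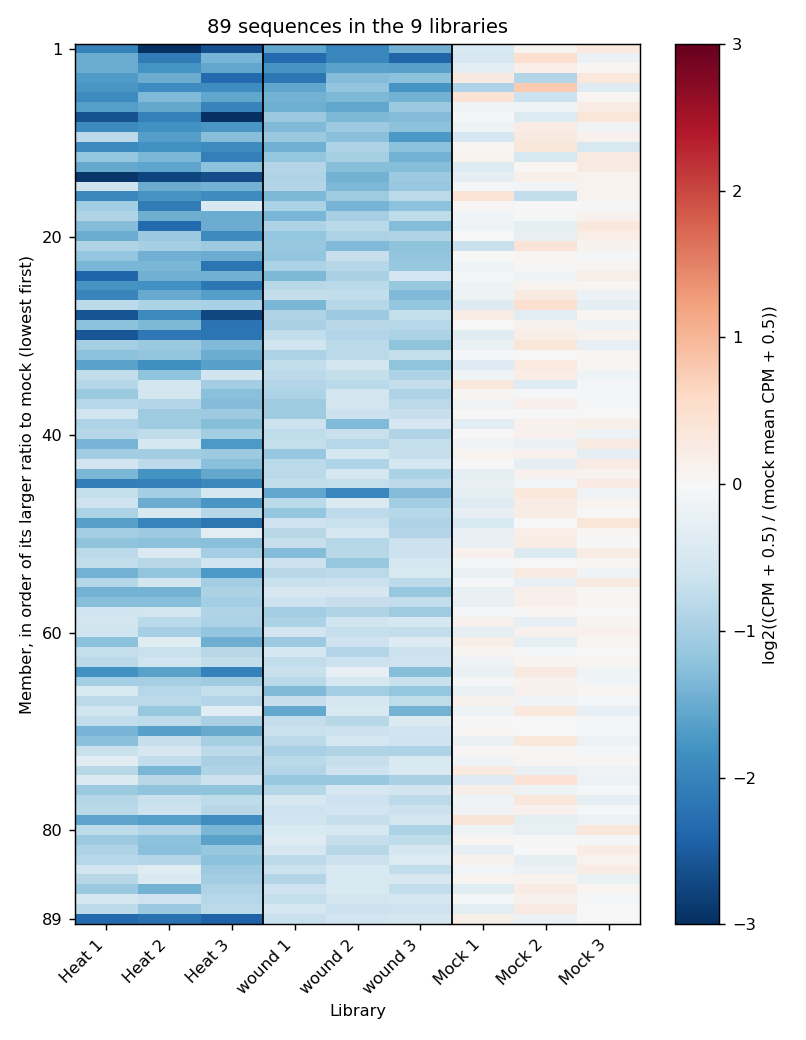
Level of each of the 89 members (rows, ordered by the larger of their 2 ratios to mock) in the 9 libraries (columns), as log2 of CPM + 0.5 over the member's mock mean + 0.5, with the colour scale capped at -3 and 3. All heat and wounded libraries lie below the mock libraries because membership required it. The heat mean is below the wound mean in 74 of the members (83.1%, against 52.3% of the rows that reached 5 CPM in mock), and the membership limits bear on that share.

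Most falls were moderate. The median heat to mock ratio was 0.459 and the median wound to mock ratio was 0.576, with lowest values of 0.146 after heat and 0.215 after wounding. Heat brought 52 members to a ratio of 0.5 or less (58.4%, against 6.61% of the rows that reached 5 CPM in mock). Wounding brought 26 there (29.2%, against 0.950%). For 19 members both ratios were at most 0.5 (21.3%, against 0.307%), and for 7 both were at most 0.4 (7.87%, against 0.112%). In contrast, 35 members had a wound to mock ratio above 0.6 (39.3%, against 97.6%). For heat to mock there were 14 (15.7%, against 88.7%). The conditions held both ratios of a member to at most 0.67, so nothing is read from these shares. Among all 7158 rows that reached 5 CPM in mock, the median ratios were 0.998 after heat and 1.00 after wounding, 1145 rows had a heat to mock ratio of at most 0.67, 297 had such a wound to mock ratio, and 116 had both.

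**Figure D2:**
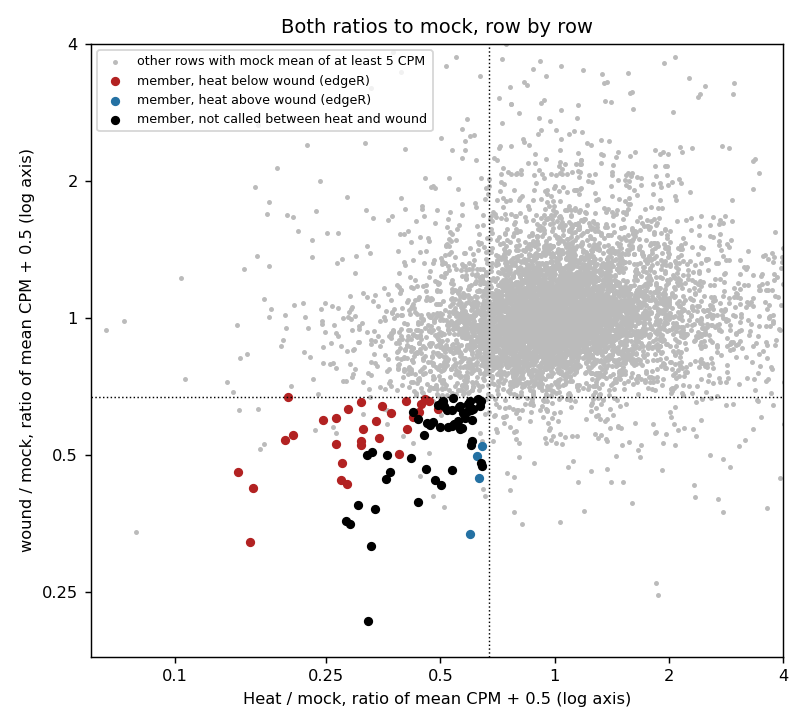
Heat to mock ratio (x axis) against wound to mock ratio (y axis) for all rows that reached 5 CPM in mock, both as ratios of mean CPM + 0.5 on log axes, with dotted lines at 0.67; 228 grey rows lie outside the plotted range. Members fill the lower left field, red where heat was called below wounding, blue where it was called above and black where neither was called, and grey points inside it are the 27 rows whose libraries overlapped mock.

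The same rows were compared with edgeR's quasi-likelihood test on the counts, fitted over all 9645 rows that passed the filter on low counts, and all 89 members passed that filter. With Benjamini-Hochberg adjustment and a threshold of 0.05, 88 members were called lower after heat than mock, 77 lower after wounding than mock, and 76 in both. Because the same contrasts chose the members, nothing is read from these counts. Of all tested rows, 22.8% were called lower after heat, 5.02% after wounding and 2.15% in both, and of those that reached 5 CPM in mock 25.8%, 6.40% and 2.74%. The 76 members made up 85.4% of the members and 36.7% of the 207 rows called lower in both.

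The most abundant members by read count were long scaffolds, and their order by CPM is not an order of expression per length. Niben101Scf01008 (positions 1 to 467562) had 240.2, 219 and 222 CPM in heat libraries, 273, 356 and 236 CPM in wounded libraries, and 428, 1380.0 and 613 CPM in mock libraries. Niben101Scf08422 (positions 1 to 220293) had 265, 173 and 284 CPM in heat libraries, 147, 193 and 141 CPM in wounded libraries, and 523, 1055 and 659 CPM in mock libraries. In both, mock replicate 2 stood far above the other mock libraries, while the heat and wounded libraries overlapped each other.

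Among the remaining 6 of the 8 most abundant members the mock libraries lay closer together. Niben101Scf01084 (positions 1 to 783151) had 308, 254 and 245 CPM in heat libraries, 307, 427 and 306 CPM in wounded libraries, and 681, 733 and 658 CPM in mock libraries. Niben101Scf09372 (positions 1 to 501750) had 209, 215 and 174 CPM in heat libraries, 254, 279 and 299.9 CPM in wounded libraries, and 472, 493 and 501 CPM in mock libraries. In Niben101Scf09372 all heat libraries lay below the wounded ones, and heat minus wound was -0.46 ± 0.10 on the log2 scale (SE, edgeR adjusted p = 0.00249). In Niben101Scf01084 they overlapped; its difference of -0.35 ± 0.14 (SE, edgeR adjusted p = 0.0491) was lost in 11 of 20 alternative fits, 6 of them without 1 library (heat replicates 2 and 3, wound replicate 2 and each mock replicate), with adjusted p up to 0.478. The longest member, Niben101Scf03143 (positions 1 to 1420353), had 391, 388 and 369 CPM in heat libraries, 419.6, 482 and 399 CPM in wounded libraries, and 749.5, 638 and 658 CPM in mock libraries.

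The other 3 of this group had heat to mock ratios of 0.5004 to 0.523 and wound to mock ratios of 0.575 to 0.657. Niben101Scf03507 (positions 1 to 666339) averaged 219.6 ± 29.5 CPM in heat libraries, 284 ± 37.6 CPM in wounded libraries and 433 ± 66.6 CPM in mock libraries (SD, n = 3). Niben101Scf03052 (positions 1 to 157039) averaged 203 ± 34.2 CPM in heat libraries, 233 ± 42.0 CPM in wounded libraries and 405 ± 37.5 CPM in mock libraries. Niben101Scf02069 (positions 1 to 326407) averaged 206 ± 56.4 CPM in heat libraries, 227 ± 35.6 CPM in wounded libraries and 395 ± 21.6 CPM in mock libraries. In the last of these, heat replicate 2 and wound replicate 2 were the high libraries of their groups, at 270.7 and 268 CPM.

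**Figure D3:**
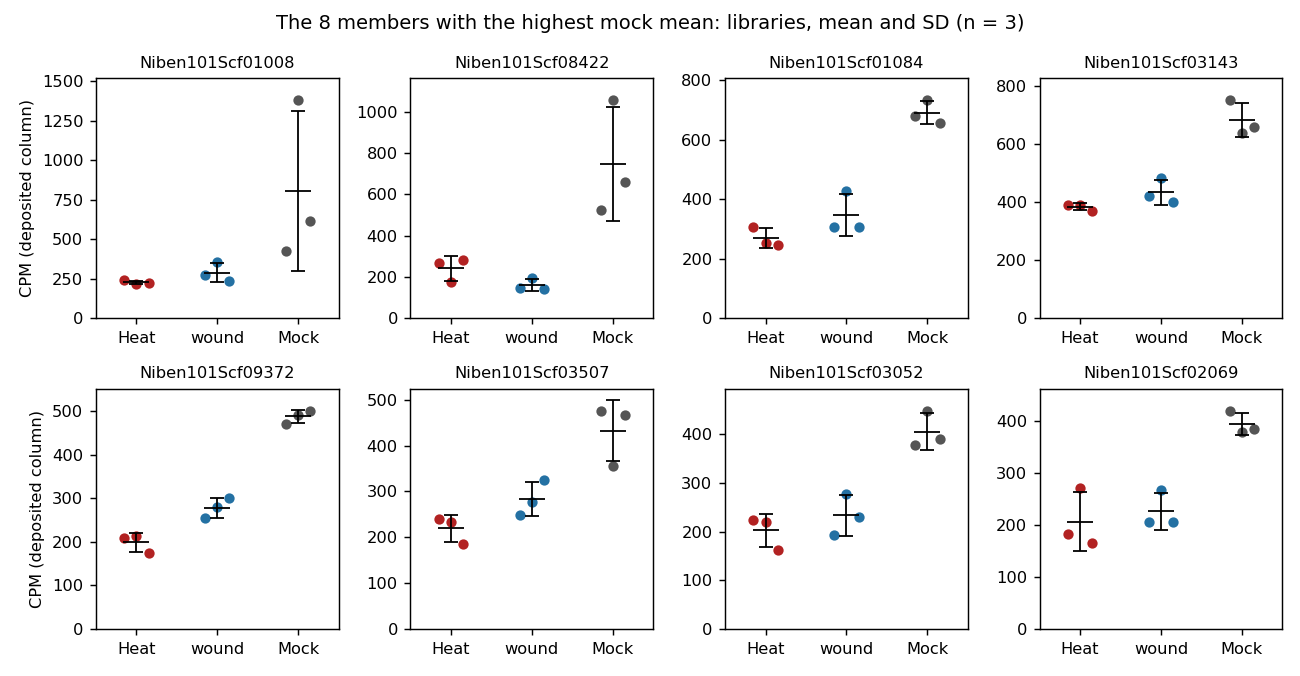
CPM (y axis, from 0) of the 8 members with the highest mock mean in the heat, wounded and mock libraries, with points for libraries and bars for the mean and SD (n = 3). The wide mock bars of Niben101Scf01008 and Niben101Scf08422 come from 1 library, mock replicate 2, at 1380.0 and 1055 CPM.

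Per length, short contigs led the members. In deposited TPM, which divides by the whole sequence length, Niben101Ctg06310 (positions 1 to 707) was first, with 231 ± 47.7 TPM in heat libraries, 433 ± 69.9 TPM in wounded libraries and 939 ± 200.3 TPM in mock libraries (SD, n = 3). Its heat minus wound difference was -1.04 ± 0.18 on the log2 scale (SE, edgeR adjusted p = 4.22e-04). This contig and Niben101Ctg13284 were picked out after their values were seen. The shortest member, Niben101Ctg03809 (positions 1 to 598), came next, with 237 ± 6.28 TPM in heat libraries, 238 ± 34.3 TPM in wounded libraries and 431 ± 159.7 TPM in mock libraries. Niben101Ctg13284 (positions 1 to 1877) followed, with 195 ± 31.8 TPM in heat libraries, 192 ± 16.3 TPM in wounded libraries and 349 ± 60.6 TPM in mock libraries. Its heat minus wound difference in the fit was -0.10 ± 0.17 (SE, edgeR adjusted p = 0.651). By contrast Niben101Scf01008, first by CPM, was in place 16 by TPM. Whole-sequence length includes unexpressed sequence, so TPM understates the level of a gene on a long scaffold.

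Shorter sequences were a larger share of the members than of the rows from which they were drawn. Of the members, 15 were contigs (16.9%), against 350 of the 7158 rows that reached 5 CPM in mock (4.89%). Sequences under 2000 nt made up 12.4% of members and 3.10% of those rows, and sequences of 200000 nt or more made up 40.4% and 62.4%. Put the other way, 4.95% of the 222 rows under 2000 nt were members, 2.65% of the 264 rows from 2000 nt to under 20000 nt, 1.59% of the 2207 rows from 20000 nt to under 200000 nt and 0.806% of the 4465 longer rows. Level moved with length: median mock CPM was 10.2 for the members under 2000 nt and 70.3 for the members of 200000 nt or more. The part of level and of pooling of several genes in this order was not tested.

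The members with the lowest larger ratio included long scaffolds and a short contig. Niben101Ctg13329 (positions 1 to 1902) had the lowest larger ratio, with 0.158 for heat and 0.322 for wound. It had 4.21, 0.759 and 2.59 CPM in heat libraries, 5.98, 4.45 and 6.50 CPM in wounded libraries, and 13.5, 19.6 and 22.8 CPM in mock libraries. No heat library overlapped a wounded one, and heat minus wound was -1.14 ± 0.42 (SE, edgeR adjusted p = 0.0388), a call lost without heat replicate 2, heat replicate 3, wound replicate 1 or wound replicate 3, with adjusted p up to 0.109. Niben101Scf01041 (positions 1 to 605562) was nearly level between the treatments, with 31.1, 24.8 and 29.4 CPM in heat libraries, 25.5, 28.5 and 28.1 CPM in wounded libraries, and 70.3, 101.4 and 91.3 CPM in mock libraries. Its ratios were 0.328 for heat and 0.316 for wound.

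Niben101Scf27377 (positions 1 to 88383) had 43.7, 50.8 and 28.0 CPM in heat libraries, 31.4, 57.9 and 60.4 CPM in wounded libraries, and 171, 76.9 and 179 CPM in mock libraries. Here mock replicate 2 was the low mock library, the reverse of Niben101Scf01008. Niben101Scf08422 and Niben101Scf01008 completed the 5 members with the lowest larger ratio, at 0.323 and 0.358.

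The direct comparison of heat with wounding was not itself a condition of membership and was tested, although the conditions used the values of both groups. In the edgeR fit, 30 of the 89 members (33.7%) were lower after heat than after wounding, 4 (4.49%) were higher and 55 were not called. Of all 9645 tested rows, 25.0% were lower and 26.7% higher, and of the tested rows that reached 5 CPM in mock 28.1% were lower and 28.5% higher. The share that was lower is thus near the background, and the share that was higher is below it. The membership limits bear on both shares: they bound the heat level from above at the same fraction of mock as the wound level, and 1145 rows passed that limit after heat against 297 after wounding. The background rows were not held to these limits, so nothing is read from the difference between the shares. The median fitted log2 fold change, heat minus wound, was -0.32 over the members and -0.02 over all tested rows.

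Counts of library overlap rest on the same 9 libraries as the fit, and the membership limits bear on them as well. All 3 heat libraries lay below all 3 wounded libraries in 33 members (37.1%, against 34.1% of rows that reached 5 CPM in mock) and above them in 5 (5.62%, against 31.0%), and overlapped them in 51 (57.3%, against 34.9%). The heat mean was below the wound mean in 74 members (83.1%, against 52.3% of those rows). Among the 30 called lower after heat, the log2 fold change ran from -1.75 to -0.34, and in 12 it was -1 or below. The median ratios to mock of those 30 were 0.309 after heat and 0.582 after wounding. The 55 members that were not called had medians of 0.520 after heat and 0.581 after wounding. Their median standard error was 0.21 on the log2 scale, and their fitted differences ran from -0.77 to 0.60. Differences well above 1 standard error could thus go uncalled.

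**Figure D4:**
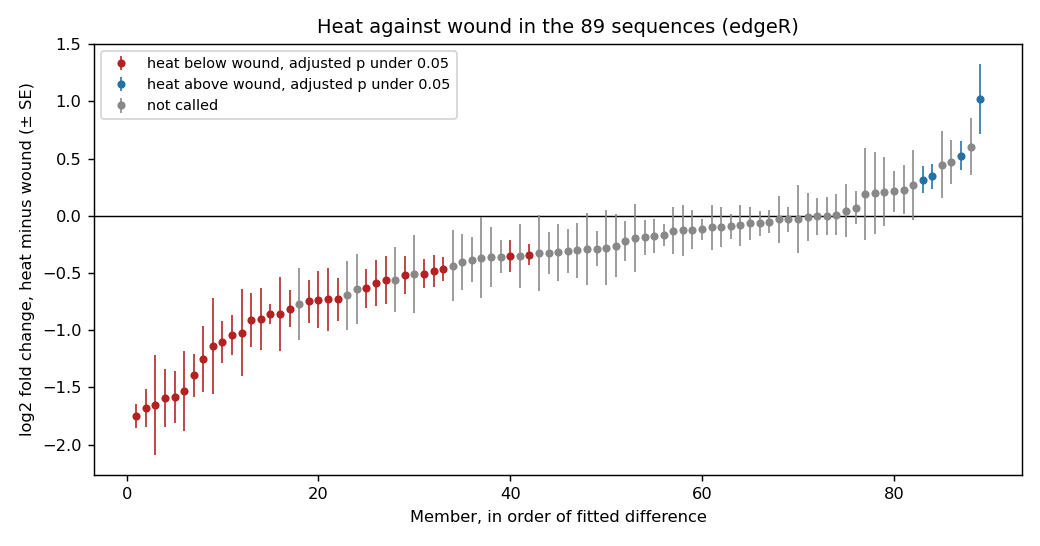
Fitted log2 fold change of heat minus wound (y axis, bars are ± SE from edgeR) for the 89 members in order of that value (x axis). The 30 members in red were called lower after heat, the 4 in blue were called higher, and the grey members were not called.

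The 4 largest called differences below wounding came from members that heat had brought to between 0.146 and 0.198 of mock. Niben101Scf18822 (positions 1 to 340728) had 74.1, 79.2 and 68.9 CPM in heat libraries, 237, 253 and 263 CPM in wounded libraries, and 421, 331 and 374 CPM in mock libraries. Its groups did not overlap, and heat minus wound was -1.75 ± 0.10 on the log2 scale (SE, edgeR adjusted p = 1.54e-07). Its wound to mock ratio was 0.669, so it stood just inside the limit.

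Niben101Scf06213 (positions 1 to 85811) had 10.6, 11.9 and 12.8 CPM in heat libraries, 44.5, 31.0 and 38.8 CPM in wounded libraries, and 68.5, 92.7 and 89.3 CPM in mock libraries. Its difference was -1.68 ± 0.17 (SE, edgeR adjusted p = 7.80e-06), with no overlap between any of its groups. Niben101Scf11365 (positions 1 to 53508) had 1.82, 2.96 and 0.482 CPM in heat libraries, 5.98, 5.07 and 5.25 CPM in wounded libraries, and 12.9, 10.1 and 17.7 CPM in mock libraries, a difference of -1.65 ± 0.44 (SE, edgeR adjusted p = 0.00785). Heat replicate 3 was its lowest library. Niben101Ctg16449 (positions 1 to 14149) had 2.91, 5.01 and 2.59 CPM in heat libraries, 10.5, 9.25 and 12.0 CPM in wounded libraries, and 23.3, 16.02 and 20.9 CPM in mock libraries, a difference of -1.59 ± 0.25 (SE, edgeR adjusted p = 2.90e-04). These 4 calls held in each of the 20 alternative settings.

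The opposite order, heat above wounding, was called in 4 members. Niben101Ctg14368 (positions 1 to 2591) had 3.56, 2.81 and 4.16 CPM in heat libraries, 1.76, 1.23 and 2.23 CPM in wounded libraries, and 5.03, 7.80 and 5.71 CPM in mock libraries, and heat minus wound was 1.02 ± 0.31 (SE, edgeR adjusted p = 0.0154). Niben101Scf18384 (positions 1 to 116470) had 134, 101 and 111 CPM in heat libraries, 72.7, 88.5 and 81.8 CPM in wounded libraries, and 159, 201 and 189.5 CPM in mock libraries, and heat minus wound was 0.53 ± 0.13 (SE, edgeR adjusted p = 0.00453). In both, wounding gave the deeper fall and no heat library overlapped a wounded one. Without heat replicate 3 or wound replicate 2 the call of Niben101Ctg14368 was lost, with an adjusted p of at most 0.0540 over all fits.

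The remaining pair differed less. Niben101Scf11364 (positions 1 to 157182) had 50.7, 52.7 and 40.9 CPM in heat libraries, 37.2, 41.0 and 36.5 CPM in wounded libraries, and 74.998, 78.7 and 78.4 CPM in mock libraries, a difference of 0.35 ± 0.11 (SE, edgeR adjusted p = 0.0201) with heat replicate 3 inside the wounded range. Niben101Scf12994 (positions 1 to 490217) had 17.9, 20.03 and 16.4 CPM in heat libraries, 14.3, 15.1 and 14.6 CPM in wounded libraries, and 29.0, 29.0 and 27.5 CPM in mock libraries, a difference of 0.32 ± 0.12 (SE, edgeR adjusted p = 0.0440). The call of Niben101Scf11364 was lost in 8 of 20 alternative settings and that of Niben101Scf12994 in 15. They lost it without 4 and 7 of the 9 single libraries, with adjusted p up to 0.111 and 0.197.

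Since 1 high mock plant could make a member, the spread of the mock libraries was set beside its values in all 7158 rows that reached 5 CPM in mock. The median coefficient of variation of the mock libraries was 15.98% in members and 9.59% in those rows. It was higher in members at each level, at 19.5% against 14.1% from 5 to under 20 CPM, 15.7% against 8.62% from 20 to under 100 CPM and 10.8% against 7.84% at 100 CPM or more. Mock replicate 2 was the highest mock library in 47 members (52.8%, against 40.2% of the rows), replicate 3 in 25 and replicate 1 in 17. It was also the highest in 51.9% of the 27 rows that passed both ratio limits but overlapped mock. The conditions used the mock values and the background rows were not held to them, which bears on all these comparisons. In 12 members (13.5%, against 5.73% of the rows) the highest mock library exceeded 1.5 times the mean of the other mock libraries, and in 1 it exceeded 2 times that mean.

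That member was Niben101Scf01008, whose highest mock library was 2.65 times the mean of the others. Next came Niben101Scf02191 and Niben101Scf08422, at 1.79 and 1.78 times. Niben101Scf02191 (positions 1 to 428360) had 140.3, 125 and 123 CPM in heat libraries, 92.9, 134 and 108 CPM in wounded libraries, and 185, 343 and 199 CPM in mock libraries. All 3 were high in mock replicate 2. In Niben101Scf16956 (positions 1 to 38591), next at 1.67 times, mock replicate 1 was the high library: it had 1.09, 1.29 and 1.14 CPM in heat libraries, 1.89, 2.40 and 2.96 CPM in wounded libraries, and 7.61, 3.13 and 6.01 CPM in mock libraries. Its heat minus wound difference of -1.02 ± 0.38 (SE, edgeR adjusted p = 0.0404) was lost in 9 of 20 alternative fits, among them those without each heat replicate, wound replicates 2 and 3 and mock replicate 3, with adjusted p up to 0.128.

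A member cannot fail the overlap condition when a library is left out, so only the limits on mock mean and ratio could end a membership. Under those limits, leaving out mock replicate 2 did not end most memberships. Niben101Scf01008 and Niben101Scf08422 stayed members without it, with larger ratios of 0.555 and 0.408, while Niben101Scf02191 did not, at 0.676. In all, 74 of the 89 members met the conditions without mock replicate 2, 80 without mock replicate 1 and 82 without mock replicate 3, and 61 met them whichever 1 mock library was left out. With the lowest mock library in place of the mock mean, 36 of the 89 were left. Without mock replicate 1 the conditions were met by 136 rows, over 1.5 times as many, of which 56 were new. The overlap condition is looser with a mock library left out.

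The excess of mock replicate 2 in the members' summed level came mostly from the first 2 scaffolds. Without Niben101Scf01008 and Niben101Scf08422, the summed CPM of the members was 3615, 3540 and 3097 in heat libraries, 3865, 4442 and 4189 in wounded libraries and 7234, 7346 and 7223 in mock libraries. The mock libraries then lay within a narrow band. Both treated groups lay below it, as membership required of each row. The 2 scaffolds alone summed to 505, 392 and 506 CPM in heat libraries, 420 and 549 CPM in wound replicates 1 and 2 and 377 CPM in wound replicate 3, and 951, 2435 and 1271 CPM in mock libraries.

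At the other end, 24 members (27.0%) had a mock coefficient of variation under 10%, a smaller share than the 52.3% of the rows that reached 5 CPM in mock. The conditions bear on that share as well. Niben101Scf05480 (positions 1 to 242021) had the steadiest mock libraries, with 8.72, 6.15 and 6.02 CPM in heat libraries, 6.11, 8.36 and 8.14 CPM in wounded libraries, and 13.3, 13.6 and 13.3 CPM in mock libraries. Niben101Scf11364, described above, also belonged to the 4 steadiest. Niben101Scf35572 (positions 1 to 201817) had 14.5, 14.5 and 12.3 CPM in heat libraries, 14.96, 13.6 and 18.5 CPM in wounded libraries, and 25.2, 25.2 and 24.0 CPM in mock libraries. In Niben101Scf22134 (positions 1 to 161128) the mock values of 5.997, 5.89 and 5.77 CPM were as close, while its heat libraries ranged widely at 2.61, 0.986 and 4.16 CPM and its wounded libraries held 2.80, 1.92 and 2.23 CPM. Heat and wounded libraries overlapped in all 4.

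**Figure D5:**
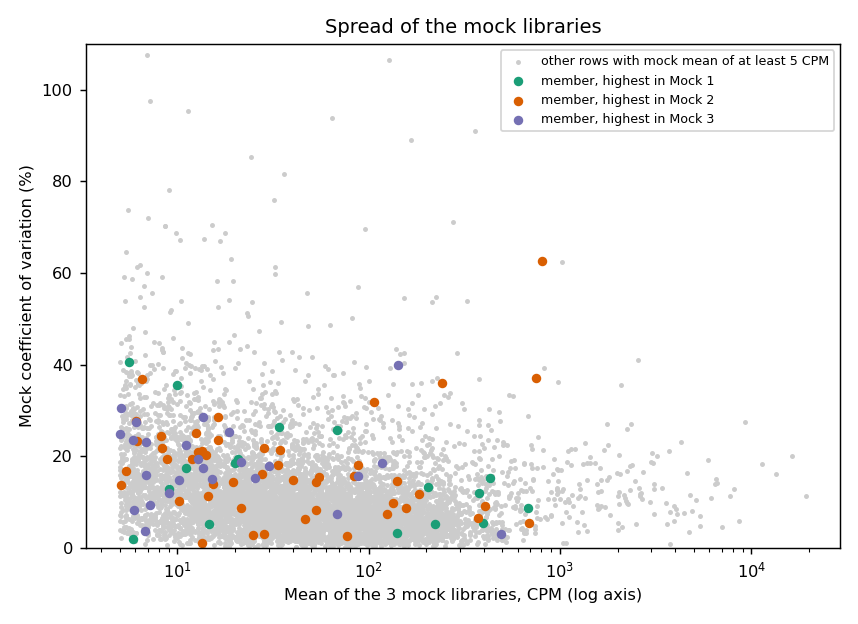
Coefficient of variation of the 3 mock libraries (y axis, percent) against their mean (x axis, CPM, log axis) for the 89 members, coloured by the mock library that was highest, and for all other rows that reached 5 CPM in mock. Niben101Scf01008, at 62.6%, stands above the other members.

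The condition that libraries do not overlap removed 27 rows that passed both ratio limits. Their mock libraries were much more spread, with a median coefficient of variation of 39.7%, but failing that condition itself favours rows with spread libraries. The one with the highest mock mean CPM, singled out after its values were seen, was Niben101Scf19584 (positions 1 to 116565). It had 153, 76.5 and 197 CPM in heat libraries, 193, 275 and 123 CPM in wounded libraries, and 164, 734 and 176 CPM in mock libraries. Only mock replicate 2 was high there, and the remaining mock libraries lay within the treated range.

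The highest heat library of a member was more often replicate 1 and less often replicate 3 than in the background rows. Heat replicate 1 was the highest heat library in 40 members (44.9%, against 29.6% of the rows that reached 5 CPM in mock), and heat replicate 3 in 14 (15.7%, against 33.9%). Wound replicate 2 was the highest wounded library in 38 members (42.7%, against 38.1%), near the background. The conditions used the heat and wound values, which bears on these shares, and the background rows were not held to them. In the 27 rows that passed both ratio limits but overlapped mock, heat replicate 1 was highest in 40.7% and heat replicate 3 in 33.3%. The median coefficient of variation was 17.8% in heat libraries and 13.9% in wounded libraries for the members, and 10.8% and 8.47% for the rows. These values were not split by level, and the members were lower. Their median heat mean was 9.47 CPM, against 47.9 CPM in the rows, and their median wound mean was 11.1 CPM, against 45.8 CPM. The part of these libraries in the members' values was not tested beyond leaving each one out: without any given 1 of the 9 libraries between 74 and 89 members met the conditions, and 54 met them in every case. No member could fail the overlap condition in this way.

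The values on both sides of the limits were close. Just inside the mock limit stood Niben101Scf01800 (positions 1 to 361758) with a mock mean of 5.03 CPM and Niben101Scf18099 (positions 1 to 53076) with 5.08 CPM. Just outside it were Niben101Ctg14714 (positions 1 to 2941) with 4.78 CPM and Niben101Scf10225 (positions 1 to 171906) with 4.66 CPM. At the ratio limit, Niben101Scf18822 at 0.669 and Niben101Scf13934 (positions 1 to 145638) at 0.667 were inside. Niben101Scf09436 (positions 1 to 631544) and Niben101Ctg08752 (positions 1 to 887) were outside, at 0.6702 and 0.6703, and in all 4 the larger ratio was that of wound to mock. The fewest counts of a member in any 1 library were 8 in heat (Niben101Scf11365, heat replicate 3), 18 in wounded and 51 in mock libraries.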

How the data were processed

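The authors deposited 1 table with 4 values per library for each scaffold or contig, per the file headers: counts, RPKM, TPM and a column headed CPM. Neither labels nor headers name the aligner, the counter or the build. The values show that the deposited RPKM is a count per length and library total (not used further), that the deposited TPM sums to 1000000 per library, and that the deposited CPM is a scaled signal, a count divided by 1 constant per library.

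The members were found from the deposited CPM. The members, the naming rule and the tests were chosen with earlier results of these data known. Named members were the 8 with the highest mock mean, the 5 with the lowest larger ratio, the 4 lowest and 4 highest called heat minus wound values, the 4 whose highest mock library most exceeded the mean of the others, the 4 with the lowest mock coefficient of variation, those at the limits, and the shortest and longest. Members named outside it are marked.

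For the tests, edgeR 4.0.16 in R 4.3.3 was run on the deposited counts: filterByExpr, TMM scaling, and 1 quasi-likelihood model of the 3 groups over all 9 libraries, with Benjamini-Hochberg adjustment over 9645 rows and a threshold of 0.05. The fit was also run on simulated counts in which few rows were changed, and only in heat. These data differ from that setting, so nothing is read from that run. Alternatives used DESeq2 1.42.0 and limma 3.58.1. The edgeR p-values set a group difference against the spread between these libraries, with the dispersion of each row drawn towards that of all tested rows. No gene lists or sequences could be used, as none is paired with the rows.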

Additional observations from a re-analysis of the deposited data

How the results depend on the processing

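The number of rows that met the conditions was 89. It was 153 with a mock mean of at least 1 CPM, 19 with ratios of at most 0.5 and 36 with the lowest mock library, each of which changes the conditions by construction. When each library was left out in turn, which loosens the overlap condition, 88 to 136 rows met the conditions. The 136 rows were reached without mock replicate 1. With library totals alone the conditions found 129 rows, and all 89 members were among them.

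Of the members, 30 were lower and 4 higher after heat than after wounding. The same counts over all 9645 tested rows were 2415 and 2573. A threshold of 0.01 left 19 members lower and 1 higher (1685 and 2014 of all tested rows). In limma on log2(TPM + 1) 11 and 2 were called (1500 and 2466 of all tested rows), a shift whose cause was not tested. The limma median log2 fold change over all tested rows was 0.07. Upper-quartile factors gave 36 lower and 2 higher (3060 and 2168 of all tested rows, whose median log2 fold change was -0.14). Library totals alone gave 32 and 2 (2736 and 2235 of all tested rows). DESeq2 gave 31 and 6 (2429 and 2669), and the fit without a filter gave 33 and 6 (2575 and 2720 of 16276 rows). Leaving out 1 library gave 20 to 30 lower and 2 to 6 higher. The count of 20 was reached without wound replicate 2, where 2054 of all 9886 tested rows were lower. The count of 2 was reached without heat replicate 1, wound replicate 1 or wound replicate 3, where 2397, 2305 and 2354 of all tested rows were higher. The calls of the fit on all 9 libraries, counted over only those members that met the conditions without a given library, were 25 to 30 lower and 2 to 4 higher; this count drops members and does not refit, so it says nothing of how steady the calls are. With the replicate block 26 were lower and 3 higher (2245 and 2425 of all tested rows). The numbers are not shown to pair plants: 2 of 9 same-numbered pairs of libraries had a correlation of deviations over 0.1, and 3 of 9 libraries correlated best with their own number. No called member changed direction in these settings, and 11 of the 30 lower and 1 of the 4 higher kept the call in all 20. The threshold of 0.01, which is the same fit read at another limit, counts among the 20. The median mock coefficient of variation over the 89 members was 15.98%, and 10.9% to 17.96% when 1 mock library was left out. It was 25.4% over the 19 members with ratios of at most 0.5 and 10.1% over the 36 kept with the lowest mock library. The deposited scaling factors and the recount over retained members were chosen after seeing the data. Members outside the calls may still differ by amounts too small for 3 libraries per group.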
